A study of Mus musculus with 6 samples.

Results

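The genes followed here mark immune cells in whole pancreas of newborn mice: 18 macrophage genes, 8 granulocyte genes, 6 antigen presentation genes and 10 B and T cell genes. They were listed by name, with earlier results of these data known, and make up 42 of the 35527 genes quantified. RNA from the pancreas of C57BL/6 mice at day 1 after birth was sequenced in bulk. The groups were 3 mice lacking miR-216a (miR216a-/-, here KO) and 3 wild-type mice (WT), each library from its own donor. The labels do not say how the null allele was made, nor the sex, litter or sequencing run of the mice. The series title places the loss of miR-216a, a microRNA of the pancreas, beside proliferation and the work of endocrine and exocrine cells.

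None of the immune genes passed the test between KO and WT. The macrophage and antigen presentation genes varied least between libraries, and the summed level of the macrophage genes lay between 785 and 920.0 CPM in KO, against 842 to 932 CPM in WT, where CPM is the read count scaled to library size by TMM. The granulocyte genes were the most variable, with a summed level of 28.9 to 385 CPM in KO and 74.9 to 381 CPM in WT. A lower C1qa, one of the C1q subunit genes, and a lower B2m, the shared chain of MHC class I, had the smallest unadjusted p-values among the 42.

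Macrophages settle in the pancreas before birth and live in the stroma and the islets, where they clear dying cells and secrete growth factors. Their survival depends on the receptor encoded by Csf1r, and many of them make the complement protein C1q. Neutrophils are short-lived granulocytes that carry bactericidal proteins in granules. Their precursors make the proteases of the azurophil granules first and the proteins of the specific granules later. Around birth the liver of a mouse still makes blood cells of several lineages. Cells show peptides to T cells on MHC molecules: class I on nearly every cell, class II mainly on professional antigen presenting cells.

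The 5p strand of the microRNA that the KO mice lack is shown first because its seed decides which 3' UTRs can pair with it. Capitals mark the seed, bases 2 to 8 of the mature strand, in the RefSeq sequence on GRCm38.p6 (chr11:28757018-28757039, plus strand).
mmu-miR-216a-5p: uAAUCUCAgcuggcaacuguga
The longest annotated 3' UTR of each gene was searched for seed sites of this strand, of the 8mer, 7mer-m8 and 7mer-A1 types. Sites of the other mature strand, miR-216a-3p, were not searched. Of the 42 immune genes 3 held a site (7.14%), against 2749 of the 15188 tested genes with a 3' UTR (18.1%). The 42 include genes with too few reads to be tested. The 3' UTRs of the immune genes ran from 56 bases (Camp) to 4316 bases (Maf), and the shares were not matched for length. The 3 sites are printed with their flanks, since they are places where these transcripts could pair with the 5p strand. Capitals mark the bases that match the site, and coordinates are on GRCm38.
Adgre1, 7mer-A1 site, chr17:57483395-57483424, plus strand: tcaacggtacaaGAGATTAccatttttgtg
Lyz2, 7mer-m8 site, chr10:117277623-117277652, minus strand: gtggatgagaacTGAGATTgtctgaactca
Ngp, 8mer site, chr9:110422992-110423012, plus strand: taaaaatgcttcTGAGATTAa
Adgre1, Lyz2 and Ngp had log2 fold changes (KO over WT) of -0.17, -0.11 and -0.14. The median over the 3 was -0.14, and that over the other tested immune genes was -0.13. Over all tested genes the medians were 0.04 with a site and -0.002 without. Each of the 3 fold changes was smaller than its standard error, which was 0.26 for Adgre1, 0.22 for Lyz2 and 0.93 for Ngp.

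Depth was even, from 20565387 to 23028718 estimated reads per library. Acinar digestive enzyme genes, which define the tissue, summed to 277200 to 347300 CPM in KO, against 233800 to 330200 CPM in WT. Erythroid genes stood apart in KO 2 and WT 1, at 4805 and 5949 CPM in sum, against 1708 and 1797 CPM in the other KO libraries and 2707 and 2841 CPM in the other WT libraries. Among the 11 erythroid genes quantified, the adult globin gene Hba-a2 reached 1726 CPM in KO 2 and 2442 CPM in WT 1, while the embryonic globin gene Hbb-y had 0 reads in 4 of the 6 libraries. WT 1 also held 911 CPM of hepatocyte genes, against 240.1 to 314 CPM in KO and 274 and 288 CPM in the other WT libraries. Alb, the albumin gene, stood at 219 CPM there and at 6.41 to 15.1 CPM elsewhere. The Y-linked gene Ddx3y was at 0.141 CPM in KO 1 and at 61.8 to 102 CPM in the rest.

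The 42 genes covered a wide range of levels per length. On the TPM scale, which corrects for transcript length, B2m was highest with a mean of 244 TPM over the 6 libraries (186 to 277). S100a9 followed with a mean of 178 TPM, yet it ran from 32.0 to 429 TPM, so its place in the order changed from library to library. H2-K1 (163 TPM, from 138 to 191), S100a8 (154 TPM, from 28.6 to 363) and Lyz2 (129.5 TPM, from 92.7 to 166) came next, and their ranges overlapped. The 3 C1q genes stood together at 76.6 TPM for C1qa, 68.0 TPM for C1qb and 63.0 TPM for C1qc, with overlapping ranges. The lowest places were held by B and T cell genes, although Ighm stood at 11.2 TPM and ranked 23 of 42. Cd3e had a mean of 0.62 TPM, Il7r 0.59 TPM, Igll1 0.24 TPM and Ccr7 0.18 TPM.

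The comparison of KO with WT asks whether the loss of miR-216a comes with a different level of immune cell genes at birth. Of the 42 genes 39 had at least 10 reads in 3 or more libraries and were tested. By edgeR's quasi-likelihood test, with Benjamini-Hochberg adjustment over 15886 genes, 0 of the 39 had an adjusted p under 0.05, as had 0 genes of the whole table (0%), and the smallest adjusted p was 0.375 among the immune genes. DESeq2, which called 2.77% of all genes, and limma-voom also called 0 of the 39; DESeq2 gave no adjusted p for 6 of them (Ngp, Camp, Elane, Cd3e, Cd4 and Il7r). Without adjustment 2 of the 39 had p under 0.05, both lower in KO, against 6.96% of all tested genes, and 0 were higher with such a p, against 5.62%. For 3 genes of the 39 (C1qa, B2m and Cd3e) all KO libraries lay below all WT libraries, as for 10.3% of all tested genes. For 1 gene (Maf) all lay above, as for 9.05% of all tested genes. Without KO 1, the library low in Ddx3y, edgeR called 0 of the 39 and 2.27% of all tested genes. The mean was lower in KO for 32 of the 39 and higher for 7, with a median log2 fold change of -0.13 against 0.007 over all tested genes. In bulk RNA, fewer cells of a type and less RNA per cell cannot be told apart.

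**Figure D1:**
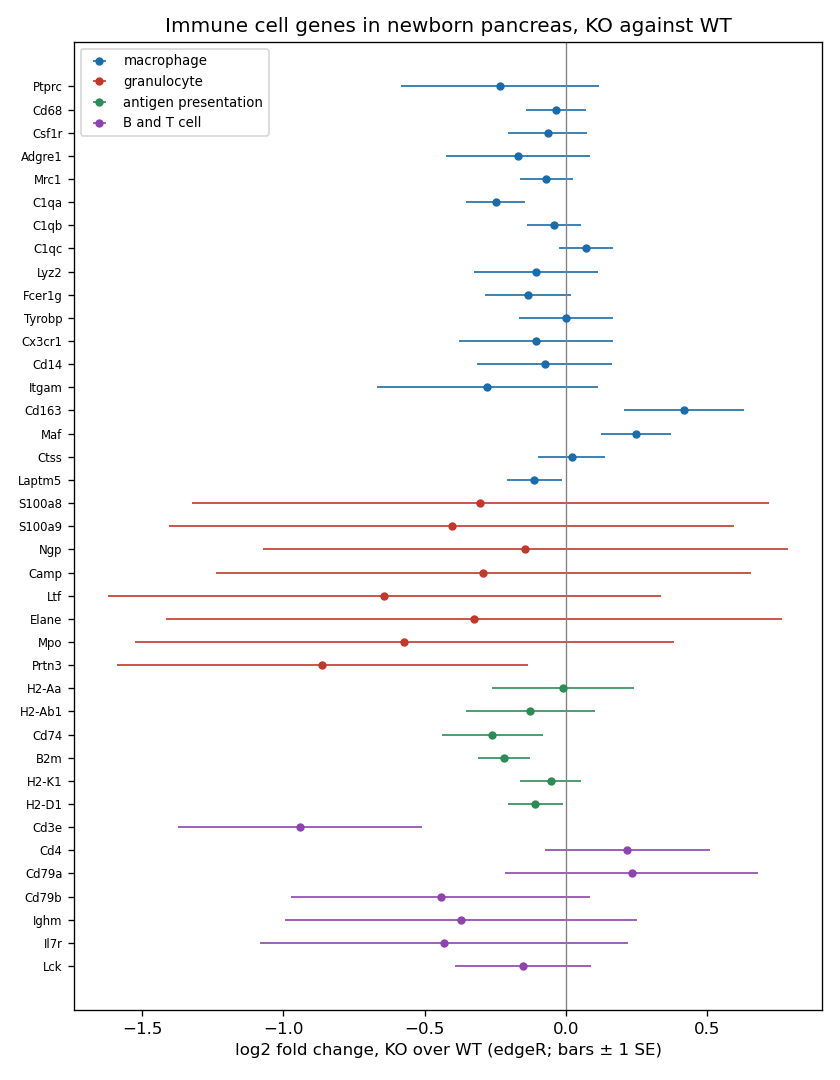
Log2 fold change of the 39 tested immune genes, KO over WT, from edgeR's fit; bars are 1 standard error either side, and colours give the 4 groups. Macrophage and antigen presentation genes lie within 0.42 of zero with bars of 0.09 (B2m) to 0.39 (Itgam), while the granulocyte genes have bars of 0.73 to 1.09.

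Genes of macrophage identity were close between groups. Csf1r, the receptor for CSF1 and IL-34, had 125, 107 and 88.3 CPM in KO 1 to 3, against 98.9, 115 and 120.5 CPM in WT 1 to 3. KO held both the highest and the lowest value, so the groups overlapped. Mrc1, the mannose receptor of tissue macrophages, had 137, 116 and 126 CPM in KO, against 131, 140.0 and 127 CPM in WT. Cd68, a lysosomal protein, stayed at 16.9 to 18.9 CPM in KO, against 17.7 to 19.5 CPM in WT, the narrowest range of the 42 genes. Its highest library was 1.16 times its lowest. Adgre1, which encodes the F4/80 surface protein, had 30.5, 31.2 and 14.8 CPM in KO, against 25.8, 30.0 and 30.0 CPM in WT. Here 1 library, KO 3, was lower than the other 5. Cx3cr1, the fractalkine receptor, showed the same low library, with 21.8, 16.0 and 9.28 CPM in KO against 17.5, 15.1 and 17.9 CPM in WT.

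KO 3 was the lowest of the 6 libraries for 10 of the 18 macrophage genes: Ptprc, Csf1r, Adgre1, Lyz2, Tyrobp, Cx3cr1, Cd14, Itgam, Ctss and Laptm5. The heat map of deviations from the WT mean shows this as a pale blue column.

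Cd163 and Maf had the largest positive fold changes of the macrophage list, and neither passed the test. Cd163, the receptor that takes up haemoglobin bound to haptoglobin, had 33.9, 27.6 and 50.5 CPM in KO, against 29.6, 30.1 and 24.3 CPM in WT. KO 3, low for much of the macrophage list, was the highest library here, and KO 2 lay within the WT range. The log2 fold change was 0.42 ± 0.21 (SE), with an adjusted p of 0.472 by edgeR. Maf encodes c-Maf, a transcription factor of tissue macrophages that other cells also use. It had 105, 103 and 101 CPM in KO, against 97.9, 91.7 and 70.8 CPM in WT. All KO libraries lay above all WT libraries, closely so for WT 1, and under upper-quartile scaling the groups overlapped. The log2 fold change was 0.25 ± 0.12 (SE), with an adjusted p of 0.467 by edgeR. Maf was the only 1 of the 39 whose KO values all lay above WT.

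Signalling and surface genes shared with other white cells varied more. Ptprc, which encodes CD45, the phosphatase on all white blood cells, had 19.8, 31.4 and 12.3 CPM in KO, against 33.9, 23.6 and 17.0 CPM in WT. Itgam, the CD11b integrin of both macrophages and neutrophils, had 14.5, 30.8 and 13.5 CPM in KO, against 36.1, 19.8 and 15.3 CPM in WT. Both genes were highest in KO 2 and WT 1, the erythroid-rich libraries, and the groups overlapped. Lyz2, the lysozyme of macrophages and granulocytes, was also highest in WT 1 and KO 2 and lowest in KO 3, with 130.0, 159 and 88.5 CPM in KO against 167, 119 and 120.3 CPM in WT. The share of Ptprc reads that Salmon gave to its longest coding isoform (33 exons), which keeps the exons that B cells retain, was 9.74, 13.7 and 2.39% in KO, against 8.72, 0.988 and 2.25% in WT. The shorter Ptprc-203 (30 exons) held 56.97 to 72.8% of the reads in KO and 72.1 to 89.3% in WT. Shares of isoforms with common exons are Salmon's estimates and carry its error.

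The remaining macrophage genes lay near no difference. Tyrobp and Fcer1g, adaptor chains of activating receptors, had log2 fold changes of 0.0009 ± 0.17 and -0.13 ± 0.15 (SE). Laptm5, a lysosomal membrane protein of white cells, stood at -0.11 ± 0.10, and Cd14, the co-receptor for bacterial lipopolysaccharide, at -0.08 ± 0.24. Ctss, the cathepsin that trims the invariant chain of MHC class II, stood at 0.02 ± 0.12. Over the 18 macrophage genes 5 had a higher and 13 a lower mean in KO, with a median of -0.07 against 0.007 over all tested genes. Without KO 3 that median was 0.07, and without KO 2 it was -0.13. Leaving out WT 2 gave -0.04.

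**Figure D2:**
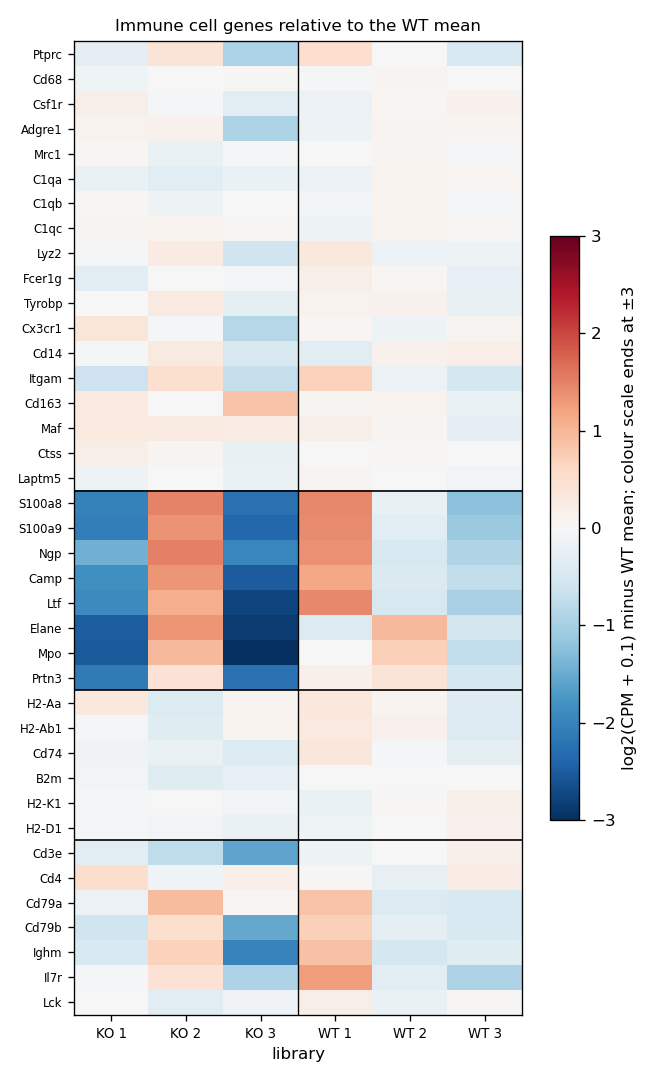
Each tested immune gene by library, as log2(CPM + 0.1) minus its WT mean, KO libraries left and WT libraries right; lines part the macrophage, granulocyte, antigen presentation and B and T cell genes. The 8 granulocyte genes change together from library to library, and KO 2 stands above KO 1 and KO 3 for each of them.

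Further genes of resident macrophages gave a similar picture. Of 26 on that list 25 were tested and 0 were called by edgeR, with 11 higher and 14 lower means and a median log2 fold change of -0.02. For 3 of them the KO values were all under the WT values, a share near the 10.3% of all tested genes. Cbr2, a carbonyl reductase, had 6.83, 5.18 and 5.94 CPM in KO against 7.87, 8.42 and 8.83 CPM in WT (log2 fold change -0.48 ± 0.16 SE, edgeR adjusted p 0.285). Cd209f, a C-type lectin gene, had 1.41, 0.254 and 0.812 CPM in KO against 1.90, 1.48 and 1.76 CPM in WT, with an adjusted p of 0.457. Il34, a ligand of the Csf1r product, had 6.36, 3.96 and 4.49 CPM in KO against 8.24, 6.65 and 7.88 CPM in WT. The groups did not overlap, and the log2 fold change was -0.62 ± 0.22 (SE) with an edgeR adjusted p of 0.298. Tgfb1, from the same list of 9 ligands and growth factors, had an adjusted p of 0.590.

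C1qa, C1qb and C1qc encode the chains of C1q, the first component of the classical complement pathway, and are neighbours on the minus strand of chromosome 4 (136880129 to 136898803, GRCm38). C1qa had 51.1, 46.1 and 50.5 CPM in KO, against 51.7, 62.9 and 60.9 CPM in WT. All KO values lay below all WT values, but KO 1 and WT 1 differed by less than the spread within either group. The log2 fold change was -0.25 ± 0.10 (SE), with p of 0.0427 and an adjusted p of 0.375 by edgeR. Its neighbours did not share this order. C1qb had 53.5, 46.8 and 51.4 CPM in KO, against 49.5, 55.8 and 50.9 CPM in WT, and C1qc had 52.4, 53.5 and 50.9 CPM in KO, against 45.0, 53.6 and 50.8 CPM in WT. Both overlapped, at log2 fold changes of -0.04 ± 0.09 and 0.07 ± 0.09 (SE). The ratio of C1qa to C1qb CPM was 0.955, 0.985 and 0.983 in KO and 1.04, 1.13 and 1.20 in WT. For C1qa over C1qc it was 0.974, 0.861 and 0.992 in KO and 1.15, 1.17 and 1.20 in WT. The groups separated in both ratios, which were looked at after the C1qa values were seen and were given no test. The ratio of C1qc to C1qb, 0.981, 1.14 and 0.990 in KO and 0.908, 0.960 and 0.997 in WT, overlapped.

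**Figure D3:**
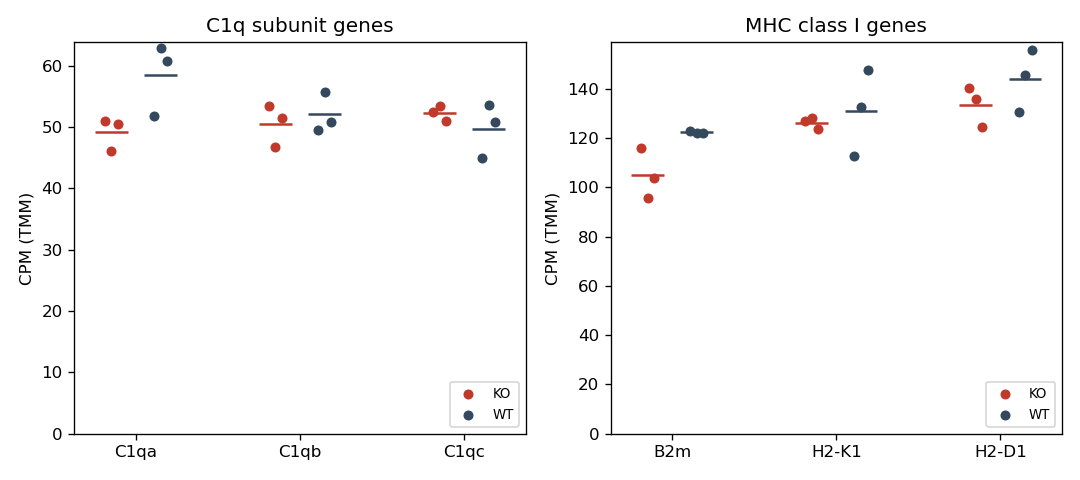
CPM of the 3 C1q genes (left) and of B2m, H2-K1 and H2-D1 (right), 1 point per library, KO left of WT, with a bar at each mean. C1qa and B2m are the genes in which no KO point reaches a WT point, while the points of the other genes overlap.

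The granulocyte genes varied widely between the libraries within both groups. S100a8 and S100a9, whose products form the calprotectin of neutrophil cytosol, were high in KO 2 and WT 1. S100a8 had 8.20, 95.4 and 7.10 CPM in KO, against 92.6, 29.1 and 14.4 CPM in WT. S100a9 had 11.6, 126 and 9.54 CPM in KO, against 132, 40.0 and 23.02 CPM in WT. KO 1 and KO 3 lay below every WT library and KO 2 near the WT maximum, so the groups overlapped. The ratio of S100a9 to S100a8 stayed between 1.33 and 1.42 in KO and between 1.38 and 1.60 in WT, while the highest library was 13.4 times the lowest for S100a8 and 13.8 times for S100a9.

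Proteins of the specific granules, made late in neutrophil maturation, showed the same order. Ltf, lactoferrin, had 6.22, 50.7 and 3.46 CPM in KO, against 64.4, 17.2 and 12.2 CPM in WT. Ngp, a neutrophil granule protein related to the cathelins, had 8.90, 70.3 and 6.24 CPM in KO, against 63.4, 17.5 and 13.2 CPM in WT. Camp, the cathelicidin gene, had 1.93, 18.04 and 1.20 CPM in KO, against 16.2, 5.29 and 4.27 CPM in WT. For all of these KO 2 stood beside WT 1 at the top, and KO 1 and KO 3 at the bottom.

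The proteases and the peroxidase of the azurophil granules, made early, ranked the WT libraries differently. Mpo, myeloperoxidase, had 1.51, 17.9 and 0.855 CPM in KO, against 9.24, 15.03 and 5.46 CPM in WT. Elane, neutrophil elastase, had 0.141, 3.25 and 0.0855 CPM in KO, against 0.900, 2.53 and 0.807 CPM in WT. Prtn3, proteinase 3, had 0.471, 3.25 and 0.428 CPM in KO, against 2.65, 3.17 and 1.61 CPM in WT. WT 2 rather than WT 1 was the highest WT library for these early genes. The summed early genes over the summed late genes (Ngp, Camp and Ltf) came to 0.124, 0.175 and 0.125 in KO, against 0.0888, 0.519 and 0.266 in WT. WT 1, rich in late transcripts, had the lowest ratio and WT 2 the highest, so KO lay inside the WT range.

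Over the 8 granulocyte genes the mean was lower in KO for 8, with a median log2 fold change of -0.36 against 0.007 over all tested genes, and 0 were called by edgeR (adjusted p from 0.678 to 0.969). Standard errors ran from 0.73 to 1.09, larger than any of the 8 fold changes but that of Prtn3 (-0.86 ± 0.73). The highest library was at least 5 times the lowest for 8 of 8, against 3.71% of all tested genes. Erythroid genes were high in the same libraries, KO 2 and WT 1, and hepatocyte genes in WT 1 alone, as given above; their part in the granulocyte values was not tested beyond the fits that follow. With the erythroid level as a covariate the log2 fold changes ran from -0.78 to 0.50. Without KO 2 the median was -2.59, and all remaining KO libraries were below all WT libraries for 8 of 8 genes, against 15.7% of all tested genes (14% lay the other way), with edgeR adjusted p from 0.291 to 0.353. KO 1 and KO 3 already lay below every WT library for these genes, so leaving out KO 2 had to give this order. The 8 genes also varied together, so 8 of 8 is not 8 separate results. Leaving out WT 1 as well could not change the order and gave 8 of 8 again, against 21.9% of all tested genes (21.7% lay the other way). The log2 fold changes then lay between -3.84 and -1.02, with adjusted p of 0.376 to 0.377. Without WT 1 alone the median was 0.51. The sign and the size of the granulocyte median therefore changed with the libraries counted. Its size also changed with the method: with all libraries it was -1.18 by limma-voom and -1.09 by limma on the authors' scaled values.

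**Figure D4:**
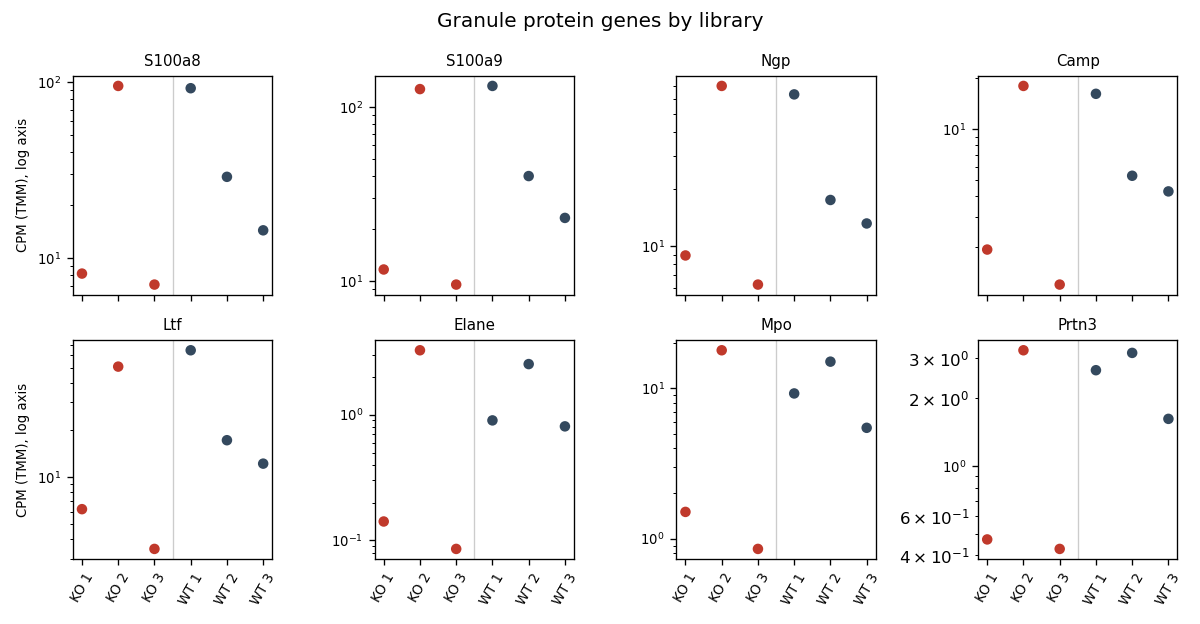
CPM on a log axis of the 8 granulocyte genes, 1 point per library, KO left of WT. KO 2 is near or above the highest WT library in each panel, and KO 1 and KO 3 are below all WT libraries.

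**Figure D5:**
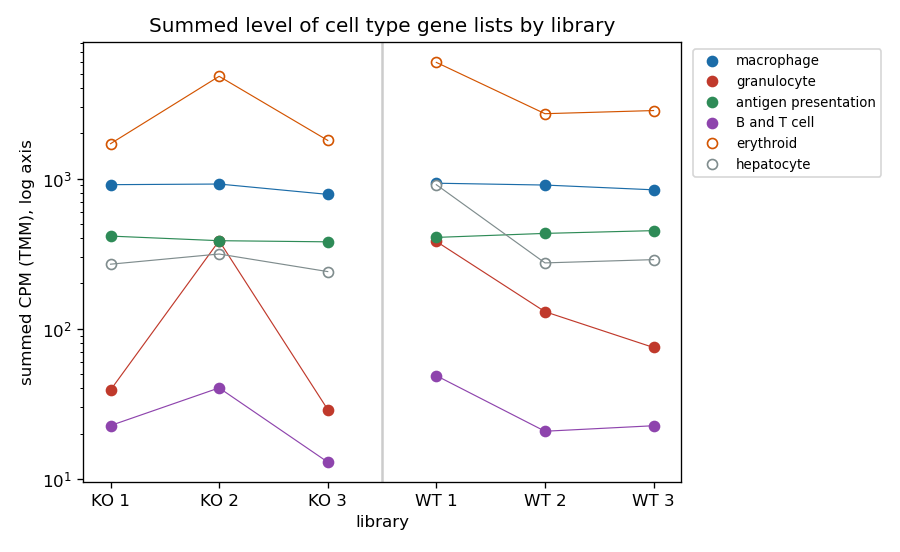
Summed CPM of each immune group, with the erythroid and hepatocyte genes as open points, by library on a log axis, KO left of WT; lines join libraries of a group only to guide the eye. The granulocyte, B and T cell and erythroid sums peak in KO 2 and WT 1, whereas the macrophage sum stays between 785 and 932 CPM.

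Since these genes varied together, their promoters are shown for 2 late genes (Ngp and Ltf) and 2 early genes (Mpo and Elane). PU.1 and C/EBP proteins are known regulators of granulocyte genes. Each RefSeq promoter (GRCm38.p6, 250 bases before to 50 after the start) was searched on both strands for the PU.1 core GAGGAA and the C/EBP pattern TTNCNNAA, whose matches are in capitals. In these 4 promoters no match of the first overlapped one of the second.
Ngp, chr9:110419558-110419857, plus strand: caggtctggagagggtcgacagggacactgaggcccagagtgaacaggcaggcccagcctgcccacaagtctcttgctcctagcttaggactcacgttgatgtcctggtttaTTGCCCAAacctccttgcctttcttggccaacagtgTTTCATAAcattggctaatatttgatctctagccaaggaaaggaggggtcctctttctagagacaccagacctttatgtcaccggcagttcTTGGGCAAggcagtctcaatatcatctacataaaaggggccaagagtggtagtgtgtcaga
Ltf, chr9:111019042-111019341, plus strand: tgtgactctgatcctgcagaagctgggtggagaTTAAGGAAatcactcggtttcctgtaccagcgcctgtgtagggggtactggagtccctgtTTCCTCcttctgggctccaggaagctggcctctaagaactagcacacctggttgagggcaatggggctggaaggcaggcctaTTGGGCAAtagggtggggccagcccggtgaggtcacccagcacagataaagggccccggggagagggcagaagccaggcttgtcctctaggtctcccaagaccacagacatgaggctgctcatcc
Mpo, chr11:87793534-87793833, plus strand: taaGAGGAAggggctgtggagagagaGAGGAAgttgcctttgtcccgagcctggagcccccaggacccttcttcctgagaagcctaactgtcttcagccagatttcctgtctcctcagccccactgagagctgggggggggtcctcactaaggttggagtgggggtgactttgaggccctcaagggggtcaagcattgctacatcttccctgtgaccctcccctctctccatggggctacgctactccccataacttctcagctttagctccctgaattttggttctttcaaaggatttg
Elane, chr10:79886062-79886361, plus strand: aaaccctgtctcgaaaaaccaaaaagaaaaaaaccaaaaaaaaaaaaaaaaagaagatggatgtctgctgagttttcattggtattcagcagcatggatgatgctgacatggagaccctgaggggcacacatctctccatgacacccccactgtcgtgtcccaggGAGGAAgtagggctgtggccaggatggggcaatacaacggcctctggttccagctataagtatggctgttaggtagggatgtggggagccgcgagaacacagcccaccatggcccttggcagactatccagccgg
The Ngp promoter held 3 C/EBP matches and the Ltf promoter 2, with 1 PU.1 core in Ltf, while those of Mpo and Elane held 2 and 1 PU.1 cores and 0 C/EBP matches. Of the other 4 granulocyte genes, S100a8 held 2 PU.1 cores and 1 C/EBP match, S100a9 held 0 and 2, Prtn3 held 1 and 0, and Camp held neither. Of 32851 promoters 28.3% hold the PU.1 core and 40.7% the C/EBP pattern, so a match in such a window is common, and these matches are descriptions of sequence only. Prtn3 and Elane are neighbours on chromosome 10 with 3072 bases between them, and S100a8 and S100a9 lie 22596 bases apart on chromosome 3.

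Other neutrophil genes tracked the same libraries. Of 18 further neutrophil and precursor genes 16 were tested and 0 were called by edgeR, with 5 higher and 11 lower means and a median log2 fold change of -0.15. Their summed level was 77.6, 239 and 73.5 CPM in KO, against 223, 96.3 and 74.4 CPM in WT. Chil3, a chitinase-like protein of mouse myeloid cells, did not follow S100a9 in proportion. It had 1.27, 27.6 and 2.01 CPM in KO, against 4.12, 1.12 and 0.902 CPM in WT, with a log2 fold change of 2.33 ± 1.15 (SE) and an edgeR adjusted p of 0.464. KO 2 alone held the high value. Gfi1, a repressor that granulocyte precursors need, had 9.28, 10.8 and 11.4 CPM in KO against 9.33, 6.29 and 8.93 CPM in WT, with an adjusted p of 0.481. Its libraries were ordered differently from those of the granule genes.

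Antigen presentation genes had slightly lower means in KO, 6 of 6, with a median log2 fold change of -0.12 against 0.007 over all tested genes. B2m had 116, 95.6 and 104 CPM in KO, against 123, 122 and 122 CPM in WT. The SD was 10.2 CPM in KO against 0.557 CPM in WT, where the libraries were nearly equal, and every KO library lay below them. The log2 fold change was -0.22 ± 0.09 (SE), with p of 0.0450 and an adjusted p of 0.382 by edgeR. H2-K1 and H2-D1, heavy chains that pair with B2m's product, overlapped between groups. H2-K1 had 127, 128 and 124 CPM in KO, against 113, 133 and 148 CPM in WT. H2-D1 had 140.2, 136 and 125 CPM in KO, against 131, 145 and 156 CPM in WT. The class I genes are close copies of one another, so Salmon had to divide reads among them and their single values are uncertain.

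Class II genes were far lower and also overlapped. H2-Aa and H2-Ab1, whose products form the I-A molecule, had 4.62 to 7.73 and 4.88 to 6.71 CPM in KO, against 4.75 to 7.72 and 4.65 to 7.72 CPM in WT. Cd74, the invariant chain that guides class II through the cell, had 17.3, 16.4 and 14.0 CPM in KO, against 23.9, 18.1 and 15.2 CPM in WT. Its log2 fold change was -0.26 ± 0.18 (SE), with an edgeR adjusted p of 0.606. Of 8 further class II pathway genes 6 were tested, 0 were called, and the smallest edgeR adjusted p were 0.630 for Ciita, the class II transactivator, and 0.882 for H2-DMb1, which encodes a chain of the peptide-loading H2-M.

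Genes of the wider class I pathway and of the interferon response gave 0 calls by edgeR. Of 17 class I genes tested 14 had a lower mean in KO, with a median log2 fold change of -0.17. For 6 of the 17 (H2-Q4, H2-Q6, H2-Q7, Tapbpl, Psmb8 and Psmb9) all KO values were under all WT values, against 10.3% of all tested genes. As class I genes, H2-Q4, H2-Q6 and H2-Q7 share reads that Salmon had to divide, so they need not be separate results. H2-Q7, a class I-like gene, had 3.67, 2.95 and 2.27 CPM in KO against 4.31, 5.53 and 4.61 CPM in WT (edgeR adjusted p 0.288). Psmb9, an immunoproteasome subunit, had 3.67, 3.10 and 2.87 CPM in KO against 4.79, 4.53 and 4.32 CPM in WT (edgeR adjusted p 0.339). Of 24 interferon response genes 23 had a lower mean in KO, with a median log2 fold change of -0.25. Among all 15886 tested genes 7766 were lower by mean. The interferon genes summed to 287, 241 and 328 CPM in KO, against 415, 292 and 308 CPM in WT. Their median log2 deviation from the WT mean was -0.21, -0.53 and 0.05 in KO, against 0.40, -0.22 and -0.13 in WT. WT 1 was highest by both measures, KO 3 lay above WT 2 and WT 3, and the groups overlapped. For 3 of the 24 genes all KO values were under all WT values, a share near the 10.3% of all tested genes. Irf1, a transcription factor that interferon induces, had 19.0, 15.2 and 16.3 CPM in KO against 19.1, 25.8 and 23.5 CPM in WT. All KO values lay below all WT values, KO 1 and WT 1 almost meeting. The log2 fold change was -0.43 ± 0.15 (SE), with an edgeR adjusted p of 0.287.

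B and T cell genes were scarce, and 3 of the 10 had too few reads to be tested. Vpreb3 and Igll1, genes of B cell precursors, had 5, 8 and 4 reads and 6, 3 and 4 reads in KO, against 27, 4 and 9 reads and 11, 3 and 5 reads in WT. Ccr7, the receptor that guides lymphocytes into lymphoid tissue, had 5, 6 and 1 reads in KO, against 16, 5 and 3 reads in WT. WT 1 held the most reads of each, and at such counts a difference between groups was not detectable.

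Cd3e, a chain of the T cell receptor complex, had 0.660, 0.457 and 0.214 CPM in KO, against 0.758, 0.842 and 0.950 CPM in WT. All KO values lay below all WT values, at 5 to 14 reads per library in KO and 16 to 21 in WT. The log2 fold change was -0.94 ± 0.43 (SE), with an adjusted p of 0.426 by edgeR. Trac, the constant part of the T cell receptor alpha chain, which belongs to a further list of T, NK and innate lymphoid genes with 6 higher and 8 lower means, had 0.518, 0.152 and 0.428 CPM in KO against 0.995, 0.882 and 0.570 CPM in WT (edgeR adjusted p 0.375). Cd4, the co-receptor of helper T cells, had 2.26, 1.42 and 1.71 CPM in KO against 1.56, 1.28 and 1.80 CPM in WT. Lck, the kinase bound to it, had 2.45, 1.88 and 2.22 CPM in KO against 2.75, 2.08 and 2.47 CPM in WT. Il7r, the interleukin-7 receptor, had 0.942, 1.37 and 0.470 CPM in KO against 2.51, 0.761 and 0.475 CPM in WT. The groups overlapped for all 3.

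The B cell genes peaked in the erythroid-rich libraries. Ighm, the heavy chain of IgM, had 10.5, 23.2 and 3.51 CPM in KO, against 26.7, 9.98 and 11.2 CPM in WT. Cd79a and Cd79b, the signalling chains of the B cell receptor, had 2.73, 6.05 and 3.21 CPM and 2.36, 5.08 and 1.20 CPM in KO, against 5.69, 2.28 and 2.23 CPM and 6.06, 3.01 and 2.61 CPM in WT. KO 2 and WT 1 were high for all 3 genes and the groups overlapped. Salmon gave 57.7, 78.9 and 29.5% of Ighm reads in KO, and 71.9, 47.8 and 76.7% in WT, to the 6-exon transcript that carries the membrane exons. The 4-exon secreted form held the rest, so the balance varied within both groups. Over the 7 tested B and T cell genes the median log2 fold change was -0.37 against 0.007 over all tested genes, with 0 called by edgeR. That median was -0.82 without KO 2, -0.07 without KO 3, 0.22 without WT 1, -0.60 without WT 2, -0.56 without WT 3 and 0.04 without WT 1 and KO 2, so its sign and size changed with the libraries counted. Erythroid genes, high in KO 2 and WT 1, moved with the B cell genes too, and with the erythroid level as a covariate the B and T cell median was 0.09, with log2 fold changes from -0.98 to 0.76 and edgeR adjusted p from 0.254 to 0.986.

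Lists for other immune cells gave 0 calls by edgeR. For monocytes and dendritic cells 11 of 13 genes were tested, with 6 higher and 5 lower means. Zbtb46, a factor of dendritic cells, averaged 16.8 ± 1.56 CPM in KO, against 15.1 ± 1.51 CPM in WT, and Siglech, a plasmacytoid cell lectin, 0.818 ± 0.451 CPM in KO, against 1.19 ± 0.171 CPM in WT (SD, n = 3, edgeR adjusted p 0.679 and 0.683). Mast cell, basophil and eosinophil genes gave 9 of 12 tested. Mcpt4, a mast cell protease, had 16.4, 16.8 and 17.8 CPM in KO against 34.2, 21.6 and 17.9 CPM in WT. All KO values lay below all WT values, as for 10.3% of all tested genes, but KO 3 and WT 3 almost met. The edgeR adjusted p of Mcpt4 was 0.382. Epx, eosinophil peroxidase, averaged 0.442 ± 0.438 CPM in KO, against 1.14 ± 0.859 CPM in WT (SD, n = 3). Of 28 chemokine and cytokine genes 18 were tested. Cx3cl1, the ligand of the Cx3cr1 product, had 8.57, 8.64 and 8.64 CPM in KO against 6.21, 7.53 and 7.55 CPM in WT, without overlap (edgeR adjusted p 0.489). Ccl9, a chemokine of mouse myeloid cells, averaged 16.0 ± 3.21 CPM in KO, against 12.1 ± 2.55 CPM in WT (SD, n = 3, edgeR adjusted p 0.463). Of 11 tested complement genes 9 had a higher mean in KO, unlike C1qa, and C1s1, the gene of a C1 protease, had 151, 137 and 154 CPM in KO against 111, 145 and 115 CPM in WT (edgeR adjusted p 0.431). Cfb, complement factor B, averaged 15.9 ± 2.68 CPM in KO, against 20.5 ± 4.27 CPM in WT (SD, n = 3, edgeR adjusted p 0.472). Of 25 T, NK and innate lymphoid genes 14 were tested, with 1 gene in each direction at an unadjusted p under 0.05 and a median log2 fold change of -0.10. Among 16 further B lineage genes 10 were tested, with 3 higher and 7 lower means. Rag1, which cuts antigen receptor genes, averaged 0.465 ± 0.249 CPM in KO, against 0.921 ± 0.569 CPM in WT, and Blnk, a B cell adaptor, 2.94 ± 0.618 CPM in KO, against 3.42 ± 0.251 CPM in WT (SD, n = 3, edgeR adjusted p 0.554 and 0.744). The platelet genes Ppbp and Itga2b, 2 of 7 listed that were tested, averaged 1.87 ± 2.69 and 5.09 ± 2.38 CPM in KO, against 1.13 ± 0.691 and 4.36 ± 1.18 CPM in WT (SD, n = 3).

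Proliferation genes, which any dividing cell expresses, were lower in every KO library than in every WT library for 8 of 8, against 10.3% of all tested genes, with a summed level of 656, 426 and 252 CPM in KO against 862, 927 and 1064 CPM in WT. Mcm5, a subunit of the replicative helicase, averaged 34.4 ± 12.2 CPM in KO, against 74.8 ± 4.6 CPM in WT, and Pcna, the sliding clamp, 61.8 ± 18.8 CPM in KO, against 117 ± 7.19 CPM in WT (SD, n = 3, edgeR adjusted p 0.207 for both). KO 3 was lowest there too, and the part of dividing cells in the immune gene values was not tested.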

How the data were processed

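RNA-seq of 3 KO and 3 WT pancreata was used. The submitters' processing notes name bcl2fastq, Salmon 0.13.1, DESeq2 1.24.0 and the build mm10. Salmon's output as the authors deposited it lists 116248 transcripts per library, each with an estimated count that is not normalized and a TPM value scaled for length and depth, per the file headers. A second table that the authors deposited, with 17324 genes, holds a scaled signal: its values over the summed reads come to 0.881 to 1.10 across libraries, close to 1 over the size factors (0.871 to 1.11). That table entered 1 alternative only. Which transcript set Salmon was given is not stated.

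By versioned identifier 115995 transcripts matched GENCODE M21 (GRCm38); the unmatched ones took 0.0341 to 0.0458% of reads. Python 3.11.15 with pandas 2.3.3 added the estimated counts up to 35527 genes, which were rounded. Genes with 10 or more reads in 3 or more libraries (15886) were tested with edgeR 4.0.16 in R 4.3.3, by TMM normalization and the quasi-likelihood test over all 6 libraries with no covariate. A Benjamini-Hochberg adjusted p under 0.05 was a call. The biological coefficient of variation was 18.4%. No pair of libraries was alike within sampling noise (chi-square over its degrees of freedom was 22.3 or more). An exact permutation test of 3 against 3 libraries cannot go below 0.1, two-sided, and was not used. In simulated data of 15685 genes 200 were changed by a factor of 2 between KO and WT. Of these edgeR recovered 61.5% with 8.89% false calls, and DESeq2 74.5% with 19.9%. The changed genes were drawn from the whole table and each gene was simulated by itself, so these are not rates for the immune genes.

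The immune genes and the 18 further lists were chosen with earlier results of these data known. All 42 genes are named, and of each further list the 2 tested genes with the smallest p. Not every gene this rule selects is reported here, and the erythroid, hepatocyte, sex-linked and enzyme lists are given mainly as sums. Hbb-y, H2-Q4, H2-Q6, Tapbpl and Psmb8 fall outside that rule and were named after their values were seen. TPM values were summed per gene. Alternatives were DESeq2 1.42.0 and its size factors, upper-quartile factors, scaling without digestive enzyme genes, other filters, limma-voom (limma 3.58.1), a transcript length offset, limma on log2(value + 1) of the scaled table, each library left out in turn, WT 1 and KO 2 left out together, and erythroid level as covariate.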

Additional observations from a re-analysis of the deposited data

How the results depend on the processing

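Of the 39 tested immune genes 0 were called in any of the 18 alternatives, and the smallest adjusted p was 0.192. The direction held for 12 genes in every alternative that tested them. Among them were C1qa (-0.33 to -0.19), B2m (-0.30 to -0.16), Maf (0.13 to 0.34), Cd163 (0.14 to 0.63) and Cd3e (-1.35 to -0.48). The filter of at least 1 CPM in 3 libraries removed Cd3e, so that alternative did not test it. No paired analysis was possible because replicate numbers follow accession order and pair no libraries. Low counts limit the lymphocyte genes, and the spread between libraries limits the granulocyte genes.

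Genes called over the whole table numbered 440 with DESeq2 (134 higher, 306 lower in KO), 2 with limma-voom (1 higher, 1 lower), 1 without a low count filter (1 lower), 2 without WT 1 and KO 2 (1 higher, 1 lower), and 0 to 361 when 1 library was left out (0 to 85 higher, 0 to 276 lower). The 361 came without KO 1. Immune genes with every KO library above every WT library numbered 0 with upper-quartile factors, 3 without WT 1 and KO 2, and 1 to 3 when 1 library was left out. Those with every KO library below numbered 17 without WT 1 and KO 2 and 3 to 14 when 1 library was left out, the 14 coming without KO 2. The 14 were 8 of 8 granulocyte, 3 of 18 macrophage, 1 of 6 antigen presentation and 2 of 7 B and T cell genes. In the same order of groups the 17 were 8, 4, 3 and 2 genes. The granulocyte genes varied together, so they are not 8 separate results. Over all tested genes the share below was 21.9% without WT 1 and KO 2 and 15.7% without KO 2, against 10.3% with all libraries. The share above was 21.7% without WT 1 and KO 2 and 14% without KO 2, against 9.05% with all libraries. Shares over all genes were not counted for the other alternatives, so their counts of immune genes have no such comparison. The granulocyte median ran from -2.59 (without KO 2) to 0.505 (without WT 1). The cause was not tested.

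Reversed log2 fold changes with the erythroid covariate were 0.312 for Il7r, 0.0859 for Ptprc, 0.152 for Itgam, 0.503 for Ngp, 0.00942 for Ltf, 0.178 for Camp, 0.0238 for Cd79b, 0.241 for S100a8, 0.143 for S100a9, 0.1 for Lyz2 and 0.177 for Ighm. Without WT 1 and KO 2 they were 0.0358 for Lck, 0.168 for Il7r, 0.328 for H2-Aa, 0.142 for H2-Ab1, -0.0165 for C1qc, -0.0263 for Ctss and -0.0992 for Tyrobp. A length offset gave 0.26 for Lck and 0.108 for Laptm5, and the authors' scaled values gave 0.24 and 0.106. Tyrobp, at 0.0009 by the main test, was at -0.000383 with DESeq2's size factors, -0.0193 with upper-quartile factors, -0.00293 without a filter, -0.000507 with DESeq2, -0.0209 with limma-voom, -0.00301 with the offset and -0.00921 in the authors' table.

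With each library left out in turn, the log2 fold changes of genes that reversed ranged as follows: Cd79a -0.193 to 0.82, Il7r -0.821 to 0.563, Adgre1 -0.341 to 0.108, Cd68 -0.0668 to 0.0171, Elane -3.60 to 0.413, Csf1r -0.193 to 0.0546, Ptprc -0.632 to 0.0586, Tyrobp -0.145 to 0.137, Itgam -0.762 to 0.158, Ngp -2.05 to 0.893, Ltf -2.69 to 0.454 and H2-Aa -0.182 to 0.165. For the others they were C1qb -0.0839 to 0.0107, Camp -2.46 to 0.555, Ctss -0.0628 to 0.131, Cd79b -1.14 to 0.0283, Cd14 -0.272 to 0.104, Cx3cr1 -0.419 to 0.165, S100a8 -2.57 to 0.762, S100a9 -2.62 to 0.643, H2-K1 -0.151 to 0.046, Lyz2 -0.313 to 0.0942, H2-Ab1 -0.305 to 0.0313 and Ighm -1.20 to 0.223.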

Other observations

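Chil3 CPM over S100a9 CPM came to 0.109, 0.219 and 0.211 in KO 1 to 3, against 0.0313, 0.0280 and 0.0392 in WT 1 to 3. The groups did not overlap in this ratio, while Chil3 and S100a9 CPM each overlapped. The ratio was computed after the values of both genes were seen and was given no test. Itgam over Csf1r, a granulocyte-shared gene over a macrophage gene, came to 0.116, 0.288 and 0.153 in KO, against 0.364, 0.172 and 0.127 in WT, and overlapped.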
